A study of Mus musculus with 23 samples.

Results

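Marrow-depleted bone of female mice carried RNA of skeletal muscle, and 37 genes of the contractile apparatus and its calcium and energy supply were read out in it. The genes were taken by symbol from the TPM table (a level scaled to the same total in each library and corrected for transcript length) and by gene ID from the count table. All 37 were found, of 14364 genes tested, and all 37 passed the filter of at least 10 counts in at least 5 mice. They were grouped as 14 genes of fast fibres, 7 genes of slow fibres, 14 sarcomere and other shared genes, and 2 ubiquitin ligases of muscle atrophy. The shared class also held Ckm, the calcium channels Ryr1 and Cacna1s, and myoglobin (Mb), in which slow fibres are richer. The 23 libraries came from 4 groups of 11-week-old C57BL6/N females. WT Control (n = 5) and KO Control (n = 6) mice were given saline. WT T1D (n = 6) and KO T1D (n = 6) mice were given streptozotocin, which destroys pancreatic beta cells, and were diabetic for 3 weeks. By the study's methods each injection held 100 mg/kg, was repeated on day 2, and was given again on day 4 if glucose stayed too low. KO mice were labelled Sarm1-KO and carried a global knockout by the study's methods, so the deletion was not limited to nerve or to bone. One library was made from the tibia and femur of 1 hind limb of each mouse, after the bones were wiped clean of soft tissue, the ends were cut off and the marrow was spun out.

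A skeletal muscle fibre contracts when calcium released from its stores binds troponin on the thin filament and lets myosin heads pull on actin. Fast and slow fibres use different copies of most parts of this machine: separate myosin heavy and light chains, troponins, calcium pumps and buffers. Slow fibres are rich in myoglobin and resist fatigue, whereas fast fibres draw more on glycolysis. In a wasting muscle, Trim63 (MuRF1) and Fbxo32 (atrogin-1) tag contractile and other proteins for breakdown by the proteasome, and both genes are widely used as markers of atrophy.

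Total counts ranged from 16938101 to 20135592 per library. Sarm1 itself did not separate the genotypes: its mean was 1.17 ± 0.40 CPM (counts scaled to library size; SD, n = 5) in WT Control, 0.69 ± 0.29 (SD, n = 6) in WT T1D, 0.80 ± 0.50 (SD, n = 6) in KO Control and 1.19 ± 0.26 (SD, n = 6) in KO T1D, at 5 to 32 counts a library, so genotypes are given as labelled. The counts are per gene and do not show which part of Sarm1 the reads came from. WT T1D mice A3905 and A3906 stood apart: 6 osteoblast marker genes summed to 1263 and 1019 TPM there, against 25177 to 59429 TPM in the 21 other libraries. In the test of T1D in WT mice, 334 of 14364 genes passed across the whole table. When those 2 of the 6 WT T1D mice were left out, 0 passed (1575 had an unadjusted p under 0.05 in edgeR). The count also fell to 0 without WT Control mouse A3767 alone, and it rose to 1264 without WT T1D mouse A3909. No 2 libraries of a group were copies of each other, since the chi-square per gene between replicates ran from 10.9 to 187 over 55 pairs.

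The 250 bases before the start sites of 4 of these genes, taken from RefSeq (GRCm38.p6), are given as examples and do not show what each class carries. They belong to the fast heavy chain Myh4 (chr11:67237562-67237811, + strand), the shared thin filament actin Acta1 (chr8:123894776-123895025, - strand), the atrophy ligase Trim63 (chr4:134314870-134315119, + strand) and the slow troponin C Tnnc1 (chr14:31208062-31208311, + strand). Capitals mark matches, on either strand, to the E-box CAGCTG read by myogenic factors such as MyoD, the MCAT element CATTCC, the TATA sequence TATAAA, and the MEF2 and CArG elements.
Myh4: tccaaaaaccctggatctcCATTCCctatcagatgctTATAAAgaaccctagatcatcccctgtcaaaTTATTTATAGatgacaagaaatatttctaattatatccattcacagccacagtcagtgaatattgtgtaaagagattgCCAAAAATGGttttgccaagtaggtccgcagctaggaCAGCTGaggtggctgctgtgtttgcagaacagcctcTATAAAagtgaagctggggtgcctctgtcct
Acta1: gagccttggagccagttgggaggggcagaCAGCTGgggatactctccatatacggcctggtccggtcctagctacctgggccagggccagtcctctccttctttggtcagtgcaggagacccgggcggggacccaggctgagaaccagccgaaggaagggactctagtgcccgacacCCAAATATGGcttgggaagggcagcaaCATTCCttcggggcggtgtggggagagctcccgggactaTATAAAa
Trim63: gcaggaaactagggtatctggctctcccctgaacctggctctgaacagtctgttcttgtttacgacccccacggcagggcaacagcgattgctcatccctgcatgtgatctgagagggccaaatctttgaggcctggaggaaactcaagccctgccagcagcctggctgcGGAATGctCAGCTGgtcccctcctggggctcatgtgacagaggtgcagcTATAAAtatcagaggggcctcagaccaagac
Tnnc1: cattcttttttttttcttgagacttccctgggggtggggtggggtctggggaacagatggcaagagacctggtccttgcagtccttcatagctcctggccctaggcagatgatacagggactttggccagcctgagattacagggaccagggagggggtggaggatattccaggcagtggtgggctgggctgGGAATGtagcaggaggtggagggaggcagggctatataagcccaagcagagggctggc
Myh4 had all 5 elements, with its MEF2 match at bases 182 to 173 before the start covering a TATAAA match at 179 to 174. Acta1 had a CArG match at bases 73 to 64 and an MCAT match at 46 to 41, Trim63 had an E-box at 72 to 67 beside an MCAT match at 80 to 75, and Tnnc1 had 1 MCAT match at 58 to 53. RefSeq gave windows for 30 of the 37 genes, 37 windows in all. The E-box CAGCTG was in 17 of these windows (45.9%), against 13% of 32851 windows of the same length over all genes, and the MCAT element was in 10 (27%), against 12.6%. TATAAA stood in 7 windows (18.9%, against 12.4%), MEF2 in 5 (13.5%, against 2.92%) and CArG in 5 (13.5%, against 1.47%). These are matches of letters and not measured binding, and genes with several windows share sequence.

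The 37 genes together made up 0.0446% to 1.68% of each library's TPM, a 37.6-fold range. Their summed level was 3463, 3492, 16759, 2459 and 5433 TPM in WT Control mice A1757, A3767, A3903, A3904 and A3907. In WT T1D it ran from 3698 to 9513 TPM with a median of 5302, in KO Control from 1358 to 16223 with a median of 2598, and in KO T1D from 446 to 6675 with a median of 3092. The 4 groups overlapped. The 2 highest values came from 1 mouse of each control group, A3903 (next in its group 5433 TPM) and A3679 (next in its group 7616 TPM). The 2 lowest, 595 and 446 TPM, came from KO T1D mice A3675 and A3676. In bulk RNA, fewer muscle cells and less RNA per cell cannot be told apart, and how much muscle stayed on each bone was not recorded in the labels.

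**Figure D1:**
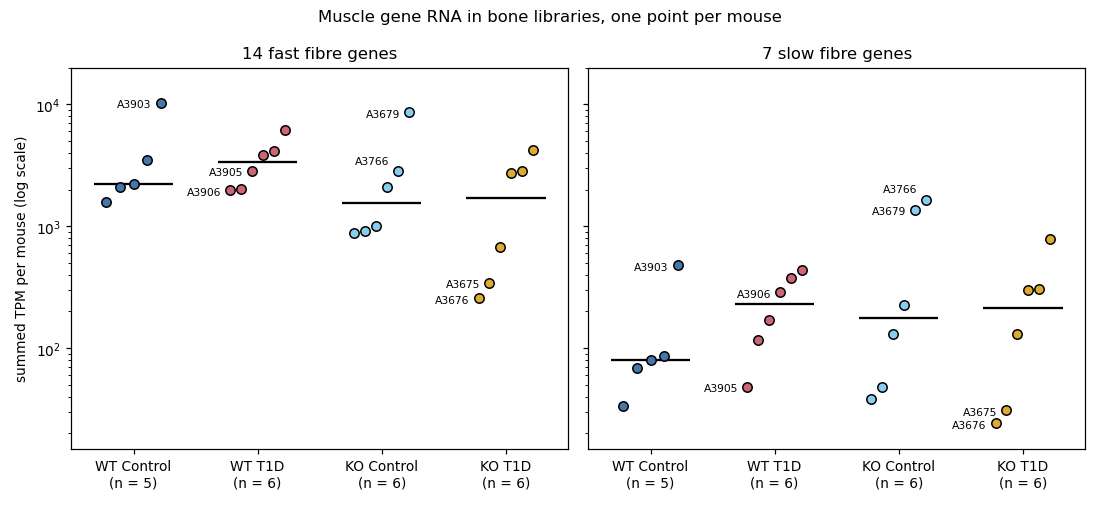
Summed TPM of the 14 fast fibre genes (left) and the 7 slow fibre genes (right) in each mouse, on a log scale, by group; each point is 1 mouse and each bar the group median. The groups overlap in both panels, fast gene sums run from 256 to 10261 TPM and slow gene sums from 24.2 to 1655 TPM.

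The rank of a mouse was largely shared by the genes. Mouse A3903 had the highest level of 20 of the 37 genes and A3679 that of 11, and A3679 was among the top 2 mice for 35. Mouse A3676 had the lowest level of 28 genes and was among the bottom 2 for 34. The fast genes kept this order most closely: all 14 were highest in A3903 and all 14 were lowest in A3676. Slow genes followed another order, with 5 of 7 highest in KO Control mouse A3766 and 2 in A3679. Since all 37 genes come from the same library, their shared rank in a mouse is 1 observation of muscle RNA and not 37.

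This spread set what the group comparisons could show. The SD between mice of a group had a median of 1.28 on the log2(TPM + 1) scale over the 37 genes (0.33 for Fbxo32 to 1.98), whereas over all 14364 genes tested the median was 0.20. Slow genes were the most variable class, with a median SD of 1.79, followed by the fast genes at 1.28 and the sarcomere and shared genes at 1.20. The standard error of a group difference in edgeR accordingly had a median of 0.70 (log2) over the muscle genes for T1D in WT mice, against 0.13 over all genes.

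**Figure D2:**
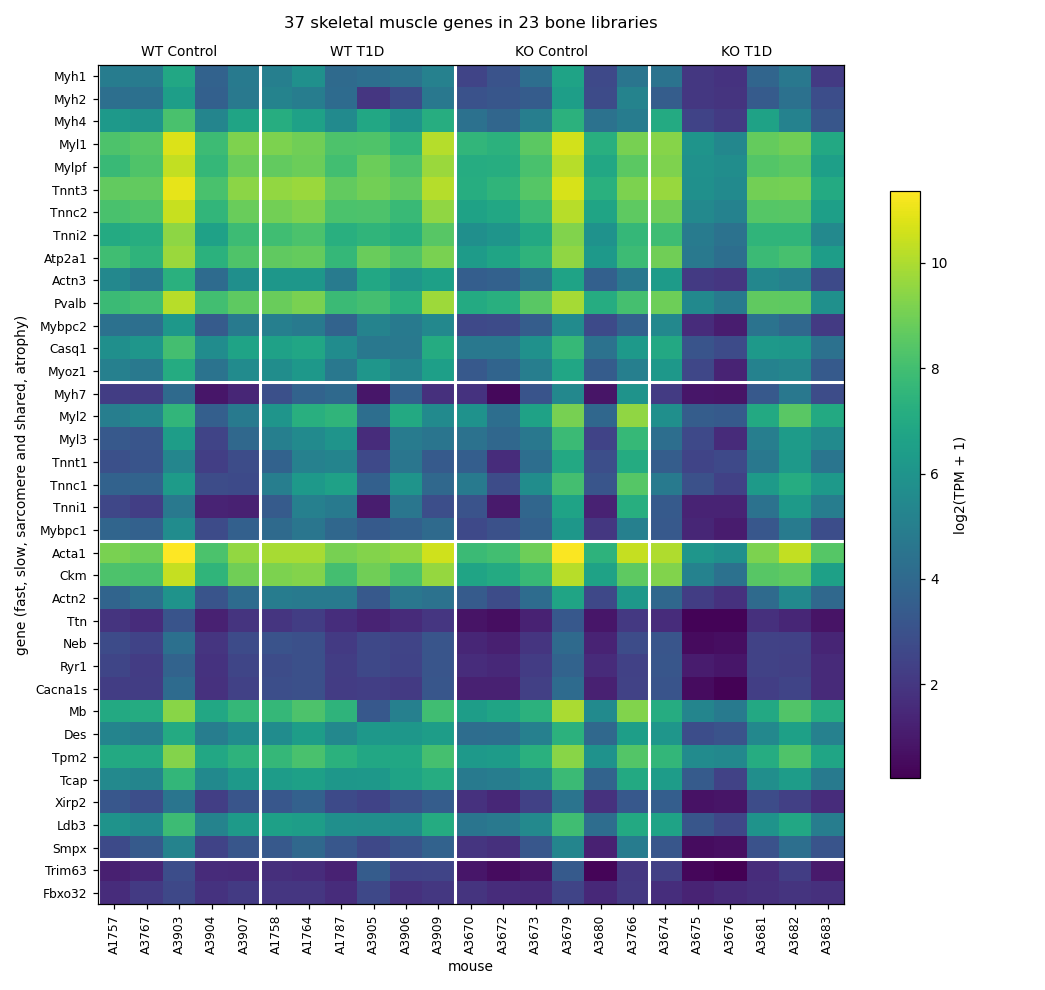
Level of each of the 37 genes, as log2(TPM + 1), in each of the 23 mice (columns, by group; white lines part groups and gene classes). The columns of A3903 and A3679 are bright from top to bottom, and those of A3675 and A3676 are dark. A3905 is low at Mb, Myh2 and the slow genes Myl3, Tnni1 and Myh7, and has the highest Trim63.

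No muscle gene passed the test in any of the 6 comparisons. With edgeR's quasi-likelihood test and Benjamini-Hochberg adjustment, 0 of 37 had an adjusted p under 0.05 for T1D in WT, where 2.33% of all genes passed. The same count was 0 of 37 for T1D in KO (0% of all genes), for the interaction of T1D and genotype (0%), for KO against WT in Control mice (0.0278%), for KO against WT in T1D mice (0.0905%) and for T1D averaged over genotypes (0.111%). At an unadjusted p under 0.05, 0 muscle genes passed for T1D in WT (22.2% of all genes), 1 for T1D in KO (3.15%), 0 for the interaction (10.2%), 4 for KO against WT in Control mice (4.8%), 3 for KO against WT in T1D mice (17.1%) and 0 for the average (16.4%). DESeq2 also called 0 muscle genes in each of the 6, where it called 6.98%, 0%, 0%, 0.0278%, 1.66% and 1.73% of all genes in the same order. The levels of each gene overlapped between Control and T1D mice of either genotype, and between genotypes in either state, for 37 of 37 genes. How many of all genes overlapped in this way was not counted, so this does not set the muscle genes apart.

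Fast fibre genes had the most RNA. Tnnt3, the fast troponin T that ties troponin to the thin filament, was the highest of them by mean TPM. It stood at 407, 417, 2009.8, 287 and 687 TPM in the WT Control mice, at 397 to 1132 in WT T1D (mean 670.3 ± 286, SD, n = 6), at 143 to 1647 in KO Control (508 ± 582, SD, n = 6) and at 45.7 to 805 in KO T1D (344 ± 313, SD, n = 6). Its log2 fold change was 0.10 ± 0.69 (SE; edgeR adjusted p = 0.95) for T1D in WT and -0.46 ± 0.66 (adjusted p = 1) for T1D in KO, so any change lay well within the spread. Over the 14 fast genes the median log2 fold change was 0.14 in WT and -0.42 in KO, against -0.01 and -0.0016 over all genes. The other troponins (Tnnc2 and Tnni2), the myosin light chains (Myl1 and Mylpf), the calcium pump of the sarcoplasmic reticulum Atp2a1, the calcium store protein Casq1 and the calcium buffer Pvalb (parvalbumin) had mean levels of 72.6 to 479 TPM over all mice, and Actn3, Mybpc2 and Myoz1, parts of the Z-disc and thick filament, 21.3 to 47.3 TPM.

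The adult myosin heavy chains mark fibre types: Myh4 is the fastest (type IIB), Myh1 (type IIX) and Myh2 (type IIA) are intermediate, and Myh7 is slow (type I). Myh4 was at 74.7, 62.0, 285, 37.99 and 105 TPM in WT Control mice A1757, A3767, A3903, A3904 and A3907. Its level ran from 45.2 to 144 TPM in WT T1D, from 14.04 to 165 TPM in KO Control and from 3.31 to 131 TPM in KO T1D. Myh1 was at 29.2, 28.3, 118, 12.1 and 26.1 TPM in the same WT Control mice, and at 15.8 to 55.3 TPM in WT T1D, 4.72 to 101 TPM in KO Control and 2.60 to 25.0 TPM in KO T1D. Myh2 was at 18.3, 19.0, 88.5, 11.4 and 25.5 TPM in WT Control and at 2.94 and 5.65 TPM in WT T1D mice A3905 and A3906. Myh1, Myh2 and Myh4 lie side by side on chromosome 11 (GRCm38.p6, 67171027 to 67260447) and have similar sequences, so reads could be split between them with some error.

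As shares of the 4 heavy chains, which set the muscle RNA content of a library aside, Myh4 took 55.0% to 66.2% in the 5 WT Control mice, a narrow range beside the other groups. It took 48.8% to 84.3% in WT T1D (mean 63.4% ± 13.4, SD, n = 6), 19.2% to 62.8% in KO Control (45.8% ± 15.2, SD, n = 6) and 33.4% to 78.8% in KO T1D (49.5% ± 21.6, SD, n = 6). The Myh7 share was 2.92%, 3.06%, 3.16%, 1.41% and 1.07% in WT Control, reached 16.7% in WT T1D, 25.1% in KO T1D and 41.0% in KO Control mouse A3766, and was lowest, at 0.61%, in WT T1D mouse A3905. The Myh2 share was 14.6% to 18.3% in WT Control, and 2.10% and 5.75% in WT T1D mice A3905 and A3906. For T1D in WT the log2 fold changes were 0.16 ± 0.79 for Myh4, -0.26 ± 0.72 for Myh1, -0.50 ± 0.70 for Myh2 and 1.01 ± 1.04 for Myh7 (SE; edgeR adjusted p from 0.60 to 0.93). For T1D in KO they were 0.12 ± 0.75, -1.11 ± 0.70, -1.47 ± 0.69 and -1.23 ± 0.97 in the same order (edgeR's quasi-likelihood fit over all genes, adjusted p = 1 for each). Myh2 alone among the 37 genes had an unadjusted p under 0.05 there. Without KO Control mice A3679 and A3766, which had the highest Myh2 levels of their group, the Myh2 value became 0.16 and its direction turned. Leaving out the highest control mice raises this value in advance, so the turn is no evidence about Myh2.

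**Figure D3:**
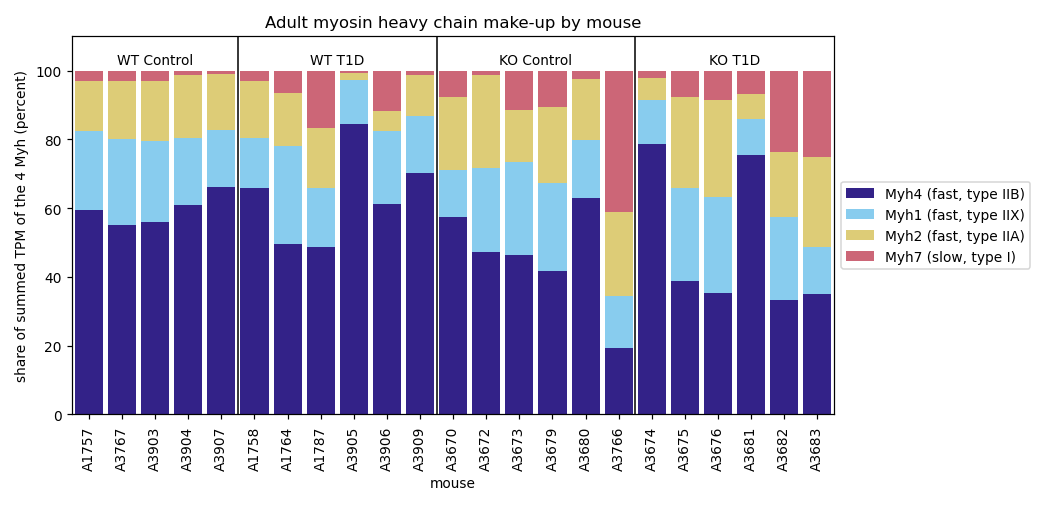
Share of each adult myosin heavy chain in the summed TPM of Myh4, Myh1, Myh2 and Myh7, in percent, with 1 stacked bar per mouse and mice ordered by group. Myh4 takes 55.0% to 66.2% in WT Control, A3766 is mostly Myh7 and Myh2 with 19.2% Myh4, and A3905 is 84.3% Myh4.

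Slow fibre genes differed most between mice. Myl2, the slow regulatory light chain, was the highest of them by mean TPM and is also made in heart. It was at 30.5, 38.2, 186, 11.0 and 27.4 TPM in WT Control mice A1757, A3767, A3903, A3904 and A3907, at 18.1 to 183 TPM in WT T1D (median 96.0), at 14.1 to 728 TPM in KO Control (median 78.7) and at 9.29 to 365 TPM in KO T1D (median 89.7). Tnnc1, the slow and cardiac calcium sensor of the thin filament, stood at 12.0, 12.8, 79.0, 5.94 and 5.58 TPM in the same WT Control mice and at 7.90, 26.2, 5.93, 49.7, 264 and 347 TPM in KO Control mice A3680, A3670, A3672, A3673, A3679 and A3766. Tnni1, the slow inhibitory troponin, ran from 1.37 to 25.4 TPM in WT Control and from 1.00 to 148 TPM in KO Control. The KO Control groups of values began as low as those of WT Control and reached far higher in A3679 and A3766.

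As a share of fast plus slow TPM, the 7 slow genes made up 1.92% to 4.47% in WT Control (mean 3.18% ± 1.12, SD, n = 5) and 4.15% to 37.04% in KO Control (13.6% ± 12.1, SD, n = 6), so 1 WT Control mouse lay above the lowest KO Control mouse. The share was 1.65% to 17.6% in WT T1D and 3.01% to 31.4% in KO T1D. For KO against WT in Control mice, edgeR gave log2 fold changes of 2.64 ± 1.15 for Tnni1, 2.37 ± 1.00 for Tnnc1, 2.08 ± 0.99 for Myl2 and 1.98 ± 0.90 for the slow troponin T Tnnt1 (SE; unadjusted p from 0.027 to 0.047, adjusted p = 0.999 for each). Myh7 (1.90 ± 1.07), the essential light chain Myl3 (1.78 ± 0.96) and the slow myosin-binding protein Mybpc1 (0.27 ± 0.71) did not reach an unadjusted p of 0.05. The class median was 1.98, while the 14 fast genes had a median of -0.54 and all genes one of -0.0003. Without A3679 and A3766, the KO Control mice with the highest slow gene sums, Tnni1 was at -0.19, Tnnc1 at 0.09, Myl2 at -0.18 and Tnnt1 at -0.33. Leaving out the highest mice of a group lowers its mean in advance, so these values do not show that only those mice differed. Without WT Control mouse A3903, the highest of its group, Tnni1 rose to 3.89.

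With T1D the slow genes had a median log2 fold change of 1.01 in WT (0.02 to 1.48, adjusted p 0.42 or more in edgeR) and -0.99 in KO (-1.32 to -0.85, adjusted p = 1). The interaction of T1D and genotype had a median of -2.03 over the 7 genes, with the largest estimate for Tnnc1 at -2.38 ± 1.32 (SE; adjusted p = 0.53), against 0.0059 over all genes. For T1D in WT, leaving out A3903 moved Myh7 from 1.01 to 2.02 and Myl2 from 1.06 to 2.12, and mice A36 to A39 alone gave 0.34 and 0.42. Without A3679 and A3766, T1D in KO became 1.30 for Myl2 and 1.39 for Myh7, against -0.97 ± 0.89 and -1.23 ± 0.97 (SE) with them. A3903, A3679 and A3766 had the highest levels of both genes in their control groups. Leaving them out therefore raises these values in advance and does not test them. Of 8 cardiac markers 4 were tested and 0 passed in either T1D comparison (2.33% of all genes passed in WT and 0% in KO). Their summed level was 4.76 to 50.8 TPM over all mice. Most of that sum came from Actc1, cardiac actin, at 0.26 to 37.98 TPM, and Myl4, the atrial light chain, at 0.91 to 30.4 TPM. Developing skeletal muscle also makes both. Myl4 did not follow the muscle sum, at 30.4 and 21.9 TPM in A3675 and A3676, which had the lowest sums, and 14.3 TPM in A3903. Its source was not tested. The cardiac troponins Tnni3 and Tnnt2 reached at most 2.46 and 1.61 TPM, and the adult heart heavy chain Myh6, which did not pass the filter, at most 0.20 TPM. The part of heart-type transcripts in the slow gene values was not tested.

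Acta1, skeletal muscle actin, had the highest mean of all 37 genes, 804 TPM. Next in its class came Ckm, the muscle creatine kinase that buffers ATP, at 402 TPM. Acta1 was at 559.5, 473, 2646, 299 and 744 TPM in the WT Control mice, at 547 to 1522 TPM in WT T1D, at 172 to 2544 TPM in KO Control and at 52.9 to 1318 TPM in KO T1D. Its log2 fold change was 0.21 ± 0.74 for T1D in WT (SE; edgeR adjusted p = 0.90) and -0.45 ± 0.70 for T1D in KO (adjusted p = 1). The 14 shared genes had a median of 0.10 in WT and -0.58 in KO. Titin and nebulin, the giant rulers of the sarcomere (Ttn and Neb), and the calcium channels Ryr1 and Cacna1s had means of only 2.39 to 5.29 TPM over all mice, and Smpx had the fewest counts of the class, 5 to 352 a library.

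**Figure D4:**
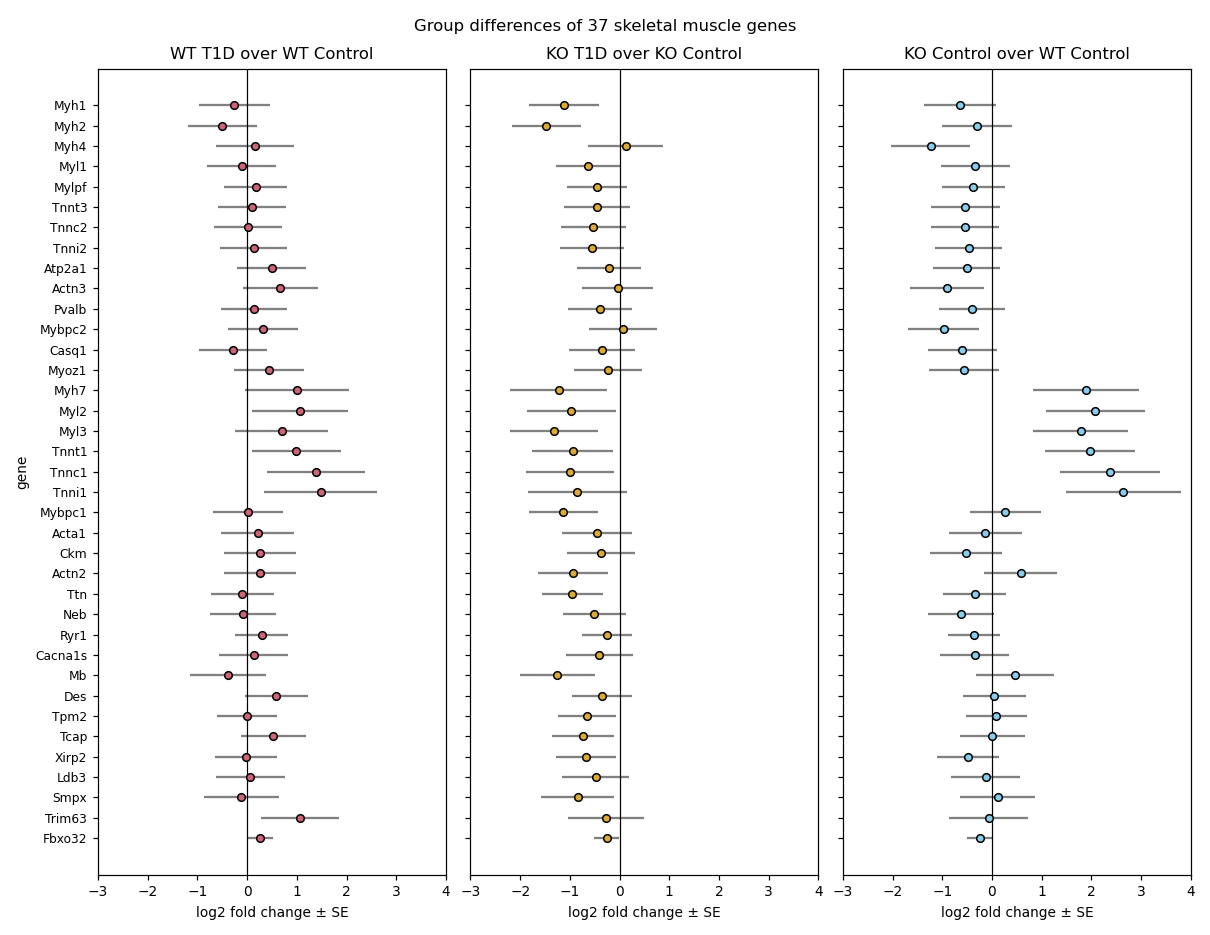
Log2 fold change (point) and standard error (bar) from edgeR for each of the 37 genes, for T1D in WT (left), T1D in KO (middle) and KO against WT in Control mice (right); the vertical line marks no difference. Slow genes Myh7 to Tnni1 sit right of 0 in the left and right panels and left of 0 in the middle one, and none of these values passed the adjusted test.

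To compare mice at the same amount of muscle, the mean log2 CPM of 8 shared genes (Acta1, Ckm, Ttn, Neb, Tcap, Ldb3, Ryr1 and Cacna1s) was added to the model, and the other 29 muscle genes were read from it. The SD between mice of a group on the log2(CPM + 0.5) scale then fell from a median of 1.30 to 0.49 over the 29 genes. Fast genes went from 1.28 to 0.40, but slow genes only from 1.79 to 1.19, so slow gene RNA followed the shared muscle level least. With this term, 0 of 29 genes passed for T1D in WT (3.88% of all genes passed), T1D in KO (0%), the interaction (0%), KO against WT in Control mice (0.0209%), KO against WT in T1D mice (0.0627%) and T1D averaged over genotypes (0.0975%). At an unadjusted p under 0.05 the counts were 3 of 29 (23.4% of all genes), 0 (2.9%), 0 (11.4%), 7 (4.71%), 3 (16.3%) and 3 (16.2%) in the same order.

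At equal muscle level, 6 of the 7 slow genes were among the 7 with an unadjusted p under 0.05 for KO against WT in Control mice. Tnni1 was at 3.00 ± 0.87, Tnnc1 at 2.76 ± 0.73, Myl2 at 2.43 ± 0.68, Myl3 at 2.28 ± 0.66, Tnnt1 at 2.20 ± 0.64 and Myh7 at 2.11 ± 0.77 (log2, SE; unadjusted p from 0.00093 to 0.012, edgeR adjusted p = 0.999 for each). None of them passed the adjusted test. This comparison was added after seeing the data, and the genes come from the same libraries, so they are not separate observations. Leaving out A3679 and A3766 lowered Tnni1 to 1.73, Tnnc1 to 1.83, Myl2 to 1.61 and Tnnt1 to 1.08 (edgeR adjusted p = 0.9998 for each). Their direction did not change. For T1D in WT, which uses the same WT Control mice, Tnnc1 was at 1.69 ± 0.70 (adjusted p = 0.15), Casq1 at -0.55 ± 0.23 (adjusted p = 0.15) and the filament protein desmin, Des, at 0.42 ± 0.19 (adjusted p = 0.18).

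The atrophy ligases had the fewest transcripts of the 37 genes apart from Ttn. Trim63 was at 1.29, 1.70, 6.32, 1.97 and 1.94 TPM in WT Control mice A1757, A3767, A3903, A3904 and A3907. In WT T1D mice A1764, A1787, A1758, A3905, A3906 and A3909 it was at 2.14, 1.46, 2.26, 10.05, 4.49 and 4.68 TPM. It ran from 0.30 to 9.45 TPM in KO Control and from 0.16 to 4.03 TPM in KO T1D, and all groups overlapped. With 4 to 313 counts a library, 3 mice fell below 10 counts. The log2 fold change of Trim63 was 1.06 ± 0.79 for T1D in WT (SE; edgeR adjusted p = 0.44), -0.27 ± 0.76 for T1D in KO (adjusted p = 1) and -1.33 ± 1.09 for the interaction (adjusted p = 0.66). The T1D in WT value was 0.49 without A3905 and 0.19 without A3905 and A3906.

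Trim63 varied with the muscle content of a library over a wide range, and Fbxo32 over a far narrower one. Across the 23 mice Ckm ranged 68.7-fold and Trim63 62.8-fold, but Fbxo32 only 3.49-fold, from 1.50 to 5.23 TPM. The highest Fbxo32 level was in A3903, which had the highest muscle sum, and the lowest in A3675, which had one of the 2 lowest sums. Fbxo32 was at 2.12, 3.28, 5.23, 2.63 and 3.31 TPM in WT Control, at 2.09 to 5.19 TPM in WT T1D, at 1.82 to 4.6 TPM in KO Control and at 1.50 to 2.73 TPM in KO T1D. Its lowest-muscle mice, A3675 and A3676, kept 1.50 and 1.94 TPM, which was 4.27% and 9.97% of their Ckm level against 0.35% to 2.61% in the other 21. Fbxo32 is also made by other tissues, and which cells of the bone its RNA came from was not tested. Its log2 fold change was 0.26 ± 0.26 for T1D in WT (SE; adjusted p = 0.58) and -0.26 ± 0.25 for T1D in KO (adjusted p = 1).

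For KO against WT in T1D mice, Fbxo32 was at -0.76 ± 0.25 (log2, SE; unadjusted p = 0.0050, edgeR adjusted p = 0.16), the muscle gene nearest to passing in that comparison. Actn3, the fast Z-disc actinin, at -1.61 ± 0.73, and Myh1, at -1.50 ± 0.71, were the others of the 37 with an unadjusted p under 0.05 (adjusted p 0.27 and 0.28). Among the mice with numbers A36 to A39, which leaves out 4 WT mice numbered A17, Fbxo32 was at -1.04 ± 0.27 with an adjusted p of 0.025, where 10.7% of all genes passed. The WT T1D mice of that subset were A3905, A3906 and A3909. Without A3905 and A3906 in the full set, the Fbxo32 value was -0.44 (adjusted p = 0.77).

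**Figure D5:**
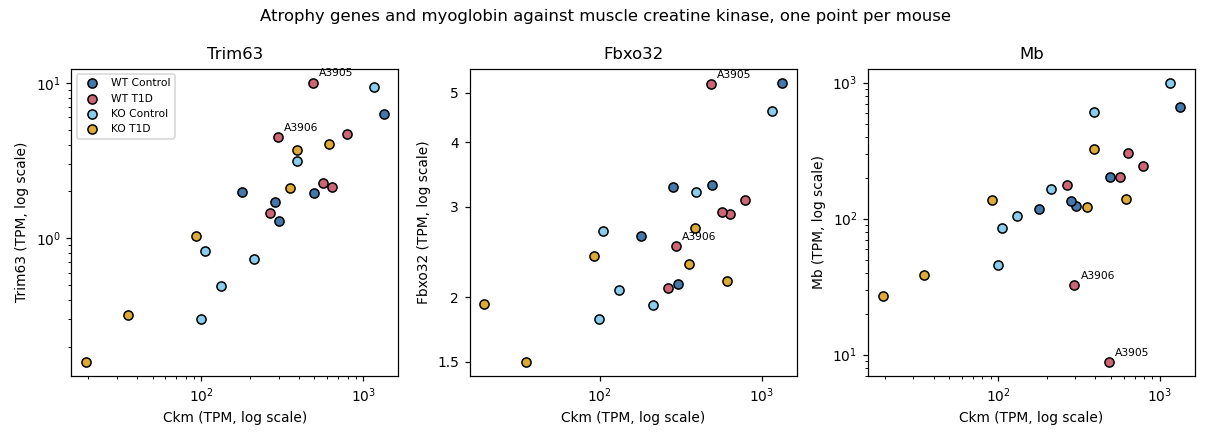
Trim63, Fbxo32 and Mb (myoglobin) against Ckm in each of the 23 mice, in TPM on log scales, coloured by group. Trim63 climbs with Ckm over a wide range, and Fbxo32 spans only 1.50 to 5.23 TPM. At their Ckm level, A3905 and A3906 lie above the other points for Trim63 and below them for Mb.

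WT T1D mice A3905 and A3906, the libraries with few osteoblast transcripts, also differed from the other 21 in some muscle genes relative to Ckm. Mb, the oxygen store of red fibres, was at 8.86 and 32.4 TPM, which was 1.82% and 10.9% of Ckm, against 22.6% to 155% of Ckm in the others. Casq1 was 5.13% and 8.51% of Ckm, against 16.8% to 30.2%. Actn3 was 24.4% and 22.4% of Ckm, against 5.98% to 15.2%, and Trim63 was 2.06% and 1.52%, against 0.30% to 1.13%. Myh2 was 0.60% of Ckm in A3905 and 1.91% in A3906, beside 1.71% to 13.7% in the others. Tnnc1 (2.31% and 20.9%, others 1.13% to 88.5%) and Fbxo32 (1.07% and 0.85%, others 0.35% to 9.97%) lay inside the range of the others. All of these are descriptions of libraries singled out for their osteoblast markers, with no test.

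Several T1D values at equal muscle level in WT moved without these 2 mice, whereas Tnnc1 was at 1.69 with them and 1.77 without. Trim63 was at 0.81 ± 0.43 (log2, SE; edgeR adjusted p = 0.25) with all mice and at -0.23 (adjusted p = 0.80) without A3905 and A3906. Among mice A36 to A39 alone, 4 of the 29 genes passed, where 16.9% of all genes did: Trim63 at 1.35 ± 0.39 (adjusted p = 0.026), Actn3 at 1.02 ± 0.33 (adjusted p = 0.039), Casq1 at -1.03 ± 0.27 (adjusted p = 0.018) and Myh2 at -1.59 ± 0.40 (adjusted p = 0.016). Actn3 also passed there for KO against WT in T1D mice, at -1.16 ± 0.32 (edgeR adjusted p = 0.037), where 8.22% of all genes passed. For T1D averaged over genotypes, Trim63 (0.92 ± 0.26, edgeR adjusted p = 0.046) and Myh2 (-1.05 ± 0.25, adjusted p = 0.033) passed, where 4.89% did. Neither of these comparisons at equal muscle level was planned. With limma on log2(TPM + 1), 2 of 29 genes passed for T1D in WT (Casq1 and Myl1), and on log2(TPM + 0.1) 3 did (with Myh2), where 36.6% of all genes passed in each. In the full set without A3905 and A3906 the T1D in WT values were 0.11 for Actn3, -0.21 for Casq1 and -0.16 for Myh2 (adjusted p 0.58 to 0.91).

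Muscle genes outside the 37 were counted by list. Over all genes, 2.33% passed for T1D in WT and 0% for T1D in KO. Of 29 further sarcomere and calcium handling genes, 0 passed in either T1D comparison, with medians of 0.14 in WT and -0.45 in KO. Sarcolipin, Sln, a regulator of the calcium pump, was at 1.52 ± 1.33 and the actin nucleator Lmod2 at 0.57 ± 0.67 in WT, and Lmod3 at -1.46 ± 0.70 in KO (log2, SE). Of 16 genes of muscle energy metabolism 0 passed, with medians of -0.10 and -0.42, and the largest estimates were 0.87 ± 0.61 for the fatty acid carrier Fabp3 and 0.62 ± 0.29 for Gpd1 in WT and -1.58 ± 0.70 for the mitochondrial creatine kinase Ckmt2 in KO.

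Of 24 further genes linked to atrophy, 1 rose in WT with T1D (2.33% of all genes passed) and 0 passed in KO (0% of all genes). That gene was Eif4ebp1, a repressor of translation, at 0.54 ± 0.14 (log2, SE; edgeR adjusted p = 0.049). Its level was 181 and 163 TPM in A3905 and A3906 and 116 to 136 TPM in the other WT T1D mice, beside 107 to 129 TPM in WT Control. In that comparison 0 genes of the whole table passed without A3905 and A3906, and 0 without WT Control mouse A3767 alone. Klf15 was at 0.67 ± 0.38 and Mt2 at 0.55 ± 0.30 in WT, and Ddit4 at 0.55 ± 0.32 in KO. Of 15 genes of denervation and the nerve-muscle junction, 11 were tested and 0 passed. Chrna1, a subunit of the acetylcholine receptor, was at -0.95 ± 0.33 (adjusted p = 0.093) and Dok7 at 0.86 ± 0.55 in WT, and Musk at -1.28 ± 0.88 in KO. Of 13 genes of myogenesis and repair, 8 were tested and 0 passed, with 0.79 ± 0.75 for the embryonic heavy chain Myh3 and -0.52 ± 0.23 for Mef2c in WT and -1.56 ± 0.64 for Myod1 in KO.

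Markers of neighbouring tissues were read beside the muscle genes. Of 6 tendon markers 0 passed in either T1D comparison (summed level 30.5 to 155 TPM over all mice), and 0 of 6 smooth muscle markers did (44.7 to 122 TPM). With T1D in WT, 2 of the 6 osteoblast markers fell (Runx2 and Ibsp) and 5 of 6 erythroid markers rose. There 1 of 4 tested adipocyte markers (Fabp4) and 1 of 5 tested Schwann cell markers (Mbp) also passed, where 2.33% of all genes did. In KO 0 of these markers passed, and 0% of all genes did. The summed osteoblast markers were at 1019 to 33913 TPM in WT T1D against 25177 to 51234 TPM in WT Control, and the summed adipocyte markers at 225 to 595 TPM against 162 to 262 TPM. Without A3905 and A3906, or without WT Control mouse A3767 alone, none of these marker genes passed for T1D in WT. Of 6 neutrophil markers 0 passed. The part of these cells in the muscle values was not tested.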

How the data were processed

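RNA-Seq was performed on marrow-depleted tibia and femur of 23 mice. The authors enriched polyA RNA, made strand-specific libraries, aligned reads with HISAT and Bowtie2 to GRCm38.p6 and estimated expression with RSEM. The deposited files hold RSEM expected counts per gene and TPM values. TPM was made by the authors from the same reads and corrects for transcript length. Here, expected counts were rounded, 14364 genes that reached 10 counts in 5 or more mice were kept, and edgeR 4.0.16 (TMM factors, quasi-likelihood test, 1 coefficient per group, R 4.3.3) gave 6 contrasts with Benjamini-Hochberg adjustment over all genes. Groups came from the sample labels. Levels are TPM, which are relative to each library's total: on log2(TPM + 1) the median of all genes was -0.24 for T1D in WT, so fold changes are from counts. The script was tested on simulated counts. DESeq2 1.42.0, limma 3.58.1 on log2(TPM + 1) and log2(TPM + 0.1), RLE factors, total counts alone, no filter, a robust fit, mice A36 to A39 only, and each mouse left out were tried. Fits without 2 mice at once, and KO against WT at equal muscle level, were added after seeing the data. T1D averaged over genotypes at equal muscle level was not planned either. The members and gene lists were chosen with earlier results of these data known. All 37 genes are described, in full where passing, highest in a class, atrophy genes or heavy chains. From each further list the 2 largest log2 fold changes in WT and the largest in KO are named, with genes that passed. RefSeq tables gave positions and promoters. Mice are separate animals, and intervals across them are SD or SE.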

Additional observations from a re-analysis of the deposited data

Results flagged for a closer look

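Single mice stood apart within their group in 24 of the 76 sets of values tested for it (Dixon's gap over range against the 95% critical value, 0.71 for 5 mice and 0.625 for 6). Chance flags about 1 in 20 such sets, and these sets are not independent, since most come from the same few libraries and levels are skewed. Mouse A3903 stood apart in WT Control for the summed 37 genes (16759 TPM against 2459 to 5433 in the others), fast genes (10261 TPM), slow genes (479.8 TPM), Trim63 (6.32 TPM), Myh1 (118 TPM), Myh2 (88.5 TPM), Myh4 (285 TPM), Myh7 (16.1 TPM), Tnnt3 (2009.8 TPM), Myl2 (186 TPM) and Acta1 (2646 TPM). Mouse A3679 stood apart in KO Control for fast genes (8618 TPM against 882 to 2813), Trim63 (9.45 TPM), Myh1 (101 TPM), Myh4 (165 TPM) and Tnnt3 (1647 TPM).

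Mouse A3766 stood apart in KO Control for the slow share of fast plus slow TPM (37.04% against 4.15% to 13.7%), the Myh7 share of the heavy chains (41.0% against 1.18% to 11.5%) and Mb (155% of Ckm against 46.0% to 86.3%). KO T1D mouse A3682 stood apart for the summed slow genes (789.96 TPM against 24.2 to 308), Myh7 (24.8 TPM) and Myl2 (365 TPM). WT T1D mouse A3905 stood apart for Trim63 (10.05 TPM against 1.46 to 4.68) and Fbxo32 (5.19 TPM against 2.09 to 3.09). The causes were not tested.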

How the results depend on the processing

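Of 1190 alternative values for 34 log2 fold changes of named muscle genes, 1134 kept their direction and side of the threshold, 8 newly passed it and 48 turned direction; 380 of 385 counts of muscle genes that passed were the same. All 54 alternative values of mean shares moved by less than 1 SD between mice, but the mean muscle share went from 0.632% to 0.371% in WT Control without A3903 and from 0.534% to 0.316% in KO Control without A3679. With mice A36 to A39 only, 1 gene passed for KO against WT in T1D mice. At equal muscle level, 4 passed there for T1D in WT, 1 for KO against WT in T1D mice and 2 for T1D averaged over genotypes. That averaged comparison at equal muscle level was not among the 385 counts. At equal muscle level limma called 2 for T1D in WT on log2(TPM + 1) and 3 on log2(TPM + 0.1), where 36.6% of all genes passed. The 334 genes of the whole table that passed for T1D in WT ranged from 0 (without A3767) to 1264 (without A3909) as single mice were left out, and were 2205 with mice A36 to A39 only and 5173 with limma on log2(TPM + 0.1).

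For T1D in WT, Myh1 became 0.52 and Myh2 0.25 without A3903 and A3679, and the Fbxo32 log2 fold change, T1D in WT, became -0.061 on log2(TPM + 1), -0.077 on log2(TPM + 0.1) and -0.060 without A3905 and A3906. At equal muscle level Fbxo32 became -0.13, -0.17 and -0.15 in the same order, and Trim63 -0.23 without those mice. For T1D in KO, leaving out A3903 and A3679 gave Myh1 0.046, Tnnt3 0.38, Acta1 0.29 and Trim63 0.89. Leaving out A3675 and A3676 gave Tnnt3 0.059, Acta1 0.085 and Trim63 0.26. Leaving out A3679 and A3766 gave Myh1 0.37, Myh2 0.16, Myh7 1.39, Tnnt3 0.76, Myl2 1.30, Acta1 1.02, Fbxo32 0.034 and Trim63 1.71, and for KO against WT in Control mice Tnni1 -0.19, Tnnt1 -0.33 and Myl2 -0.18. A3903, A3679 and A3766 had high muscle sums for their groups, and A3675 and A3676 low ones. The direction of the shifts without them was therefore largely set in advance. With limma, Myh4 for T1D in KO was -0.55 on log2(TPM + 1) and -0.63 on log2(TPM + 0.1).

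With single mice left out, T1D in WT ranged from -0.49 to 0.52 for Myh1, -0.81 to 0.25 for Myh2, -0.054 to 0.80 for Myh4, -0.10 to 0.81 for Tnnt3, -0.011 to 1.01 for Acta1, and -0.017 to 0.45 for Fbxo32 (-0.092 to 0.29 at equal muscle level). T1D in KO ranged from -1.49 to 0.051 for Myh1, -0.55 to 1.13 for Myh4, -0.94 to 0.38 for Tnnt3, -0.89 to 0.30 for Acta1 and -0.67 to 0.90 for Trim63. The cause was not tested. No paired analysis was possible because the groups share no mouse numbers.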
